A study of Mus musculus with 4 samples.

Results

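The cells described here are collagen-expressing cells of the embryonic mouse nose that held RNA of both Pax9 and Osr2 and none of Shox2. A cell was a member when it had at least 3 unique molecular identifiers (UMIs, the tags that mark single captured molecules) of Col1a1, Col1a2 and Col3a1 together, at least 1 of Pax9 and at least 1 of Osr2. It also had to have no UMI of Shox2, Osr1, Foxl2, Agtr2, Pou3f4, Sp7, Epcam and Cdh5. Retained cells, those with 500 genes or more and no more than 10% of UMIs from mitochondrial genes, numbered 13739, and 219 of them were members. Control 1 gave 69 members of 4075 retained cells and control 2 gave 40 of 2474. The first mutant library gave 51 members of 2995 cells, and the other mutant library 59 of 4195.

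Whole noses were taken at embryonic day 14.5, and 2 libraries were titled WT and 2 Sox10Cre/Yap/Taz cKO. For the controls the sample labels give C57Bl/6J and the series design gives yap flox/flox;taz flox/flox animals without Cre, and the sources used here do not settle which is right. By the labels the mutants carry Tg(Sox10-cre)1Wdr together with Yapflox and Tazflox on C57Bl/6J. By the design they are taz flox/flox and yap flox/WT with Sox10cre, so 1 Yap allele was left unfloxed. The Cre is driven by Sox10, a gene of the neural crest and its glia, and no member held a Sox10 UMI. The labels do not say which animals shared a litter, or which of the 2 named providers sequenced which library, so p-values measure the spread between these libraries only.

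Pax9 is a paired-box transcription factor and Osr2 a zinc-finger factor of the odd-skipped family. Both are known from the mesenchyme of the palatal shelves and of the tooth germs, where their loss leaves the palate open or the teeth missing or misplaced. Shox2 marks the front of the palate, whereas Tbx22, Meox2 and Barx1 are used as markers of its rear, and Barx1, Lhx8, Msx1 and Dlx2 also mark tooth-forming mesenchyme. YAP and TAZ (the products of Yap1 and Wwtr1) are coactivators of the Hippo pathway that act on DNA through TEAD factors.

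The members were chosen by their UMIs of the collagens, Pax9, Osr2 and the 8 excluded genes, so those levels are a description. The median member held 2 Pax9 and 2 Osr2 UMIs in each of the 4 libraries. Cells with 1 UMI of each, at the edge of the rule, numbered 14, 4, 6 and 14 in the order control 1, control 2, mutant 1, mutant 2, which is the order of all values below. Just outside the rule, 414 cells had both genes and were left out by an excluded gene, 117 of them by Shox2 alone and 44 of those 117 by a single Shox2 UMI. Gata2 stood at 120, 204, 118 and 134 CPM (counts scaled to 1000000 UMIs of the class in that library) in members. In otherwise alike cells with Pax9 and no Osr2 UMI it stood at 52.6, 69.3, 47.2 and 70.6 CPM, and in cells with Osr2 and no Pax9 UMI at 32.6, 19.3, 4.57 and 29.7 CPM. For Gata2, members were above both kinds of neighbour in each library. Other genes differed. Barx1 in the cells with Pax9 and no Osr2 UMI was at 351, 216, 327 and 306 CPM, against 282, 323, 558 and 158 CPM in members. Msx1 in those cells was at 151, 193, 162 and 171 CPM, against 128, 167, 184 and 187 CPM in members.

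The median depth of members was 6487, 5876.5, 8794 and 5445 UMIs, beside 6524, 6639, 8188 and 5001 UMIs in the 9908 other collagen-expressing cells, which are called other mesenchyme below. The summed counts behind each library's levels came to 515082, 268960, 467535 and 342372 UMIs, so 10 CPM is about 3 to 5 molecules. Libraries shared 22 retained barcodes, counted over pairs of libraries, and 0 of these were members. The summed level of 5 endothelial markers was between 9.71 and 29.7 CPM and that of 7 macrophage markers between 17.5 and 19.4 CPM. Epithelial markers reached 40.6 CPM in mutant 1 and between 3.72 and 11.6 CPM elsewhere. Ddx3y had no UMI in members, and Xist stood between 1186 and 1474 CPM in all 4 libraries.

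Rspo2 and Gata2, which the rule did not use, were given as further markers of these cells. Rspo2, an R-spondin that strengthens Wnt signalling at the receptor, was at 116, 126, 81.3 and 93.5 CPM in members and at 30.2, 25.6, 35.3 and 33.5 CPM in other mesenchyme. Gata2, a zinc-finger transcription factor, was at 20, 12.9, 14.3 and 22.8 CPM in other mesenchyme. Both were higher in members than in other mesenchyme in each library. Within other mesenchyme, cells with Pax9, Osr2 and Osr1 UMIs had Rspo2 at 44.2, 174, 87.2 and 48.2 CPM. That was above members in control 2 and mutant 1. Of the 219 members, an Rspo2 UMI was found in 53, a Gata2 UMI in 95, both in 31 and neither in 102. By library, Rspo2 was found in 27.5%, 25%, 23.5% and 20.3% of members and Gata2 in 43.5%, 50%, 35.3% and 45.8%. Macrophages, at median depths of 7568 to 10314 UMIs, had an Rspo2 UMI in 0 cells and a Gata2 UMI in 0%, 1.89%, 0% and 2.60%. Endothelial cells, at median depths of 8162.5 to 19133.5 UMIs, had Rspo2 in 1.67%, 0%, 13.9% and 0%. Gata2 was found in 23.3%, 26.9%, 19.4% and 16.7% of them. Thinned to 3000 UMIs, the endothelial shares were at most 2.78% and 5.71%, beside at least 14.8% and 25.5% of members. A cell without a UMI of either gene may still express it.

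The genes higher in members than in other mesenchyme included several transcription factors. Mecom, a zinc-finger transcriptional regulator, was at 212, 435, 222 and 266 CPM against 30.8, 39.8, 27.1 and 23.2 CPM. With 10 CPM added to each side, the ratio lay between 5.43 and 8.93. Gsc, the goosecoid homeobox factor of jaw and nasal skeleton, was at 116, 145, 128 and 143 CPM, with ratios from 3.69 to 5.37. Barx1 varied more, at 282, 323, 558 and 158 CPM, with ratios from 2.91 to 8.49. Tfap2c, Dach1 and the long non-coding RNA Tbx3os1 were also among the 20 leading genes. These were the genes with the highest lowest ratio.

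Secreted and signalling genes made up a further group of the leading genes. Sfrp1, a secreted Wnt antagonist, was at 182, 197, 346 and 260 CPM against 75.3, 63.1, 59.4 and 73.0 CPM. Inhba, the activin A subunit, was at 142, 145, 74.9 and 96.4 CPM against 30, 32.7, 29.6 and 30.3 CPM. Aldh1a3, a retinoic acid synthesising enzyme, and Scube1, a secreted cell-surface protein, had ratios of 2.19 to 3.48 and 2.58 to 3.01. Slc25a21, at ratios of 4.27 to 10.6, overlaps the end of Pax9 on the opposite strand of chromosome 12. Whether any Pax9 reads were counted for it was not tested, so its level is uncertain.

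Genes low in members were described in the same way. Twist2, a basic helix-loop-helix factor of dermal mesenchyme, was at 36.9, 37.2, 29.9 and 58.4 CPM against 196, 259, 279 and 236 CPM. Egfl6, a secreted matrix protein, was at 31.1, 29.7, 49.2 and 46.7 CPM against 188, 196, 239 and 220 CPM. The chemokine Cxcl14, the guidance cue Sema3c and the factors Ebf3 and Emx2 were low in the same way, and Emx2 had no UMI in the members of 3 libraries. Of 7534 genes at 20 CPM or more, 26 (0.345%) were at least 2-fold higher in members in all 4 libraries and 32 (0.425%) at least 2-fold lower. The rule used this contrast, so it was not tested.

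**Figure D1:**
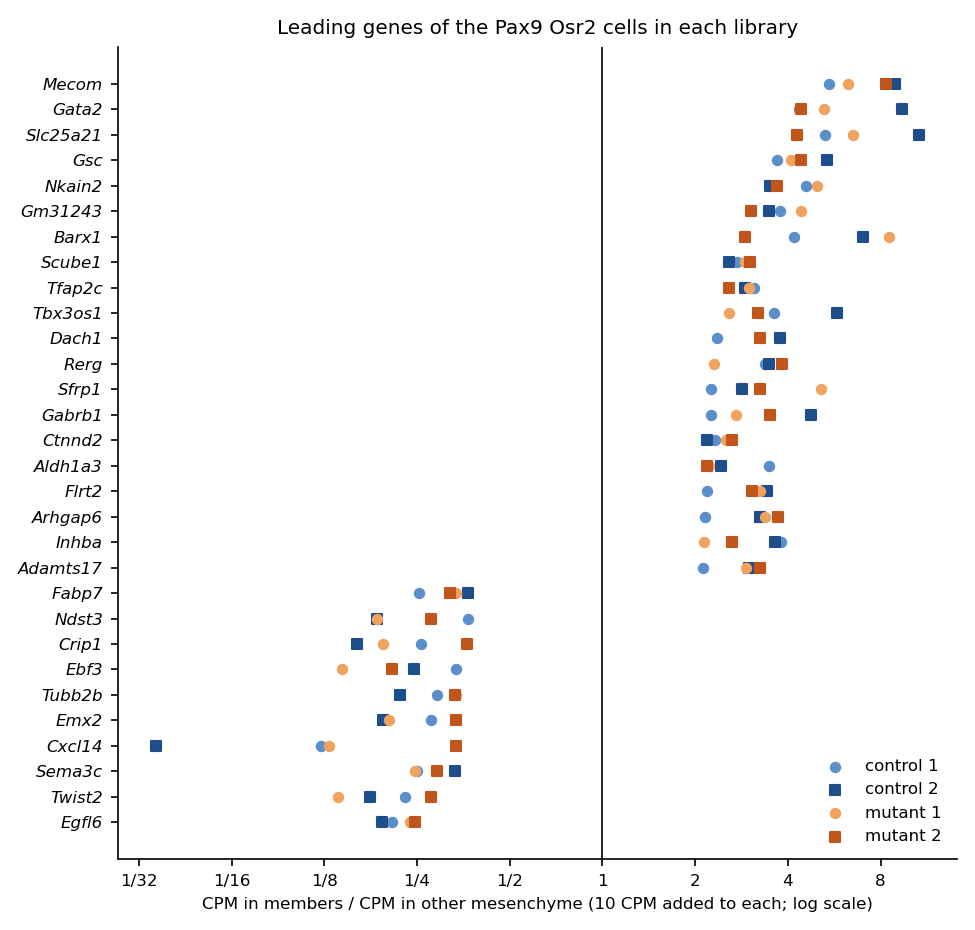
Ratio of the CPM in members to the CPM in other mesenchyme, with 10 CPM added to each, on a log scale, for the 20 leading genes above and the 10 below; each point is 1 library. Mecom lies between 5.43 and 8.93 and Egfl6 between 0.193 and 0.247, and the libraries of both genotypes are intermixed for most genes.

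The nearest cells were the 117 that met every part of the rule but held Shox2 (33, 18, 34 and 32 cells). Mecom was again highest in members, with 36.1, 54.0, 33.3 and 38.5 CPM in the Shox2 cells. Pax3, a paired-box factor of the neural crest, was at 184, 149, 85.6 and 166 CPM in members against 81.3, 23.1, 24.2 and 67.5 CPM, and its relative Pax7 at 23.3, 40.9, 17.1 and 17.5 CPM against 4.52, 0, 3.03 and 0 CPM. The last values are 0 or 1 UMI. Lower in members were Nrg3, a ligand of ErbB4, at 19.4, 7.44, 74.9 and 67.2 CPM against 72.3, 162, 327 and 304 CPM, and Tnc, the matrix glycoprotein tenascin C, at 15.5, 59.5, 57.7 and 17.5 CPM against 122, 131, 309 and 260 CPM. Of 7721 genes, 11 (0.142%) were at least 2-fold higher in all 4 libraries and 6 (0.0777%) at least 2-fold lower. Barx1, Gata2 and Rspo2 were not among them. Of the genes named above as leading beside other mesenchyme, Mecom and Scube1 also led beside the Shox2 cells. Gsc, Tfap2c, Dach1, Tbx3os1, Sfrp1, Inhba and Aldh1a3 were not among the leading genes there. In mutant 2 Barx1 and Gata2 were lower in members than in the Shox2 cells, at 158 against 164 CPM and 134 against 159 CPM. Rspo2 was at 18.1, 123, 24.2 and 33.7 CPM in the Shox2 cells, near the members' level in control 2.

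Clustered among themselves, with 1000 variable genes, the members fell into 7 groups of 51, 41, 39, 34, 25, 18 and 11 cells. The groups are described by their leading genes and were given no names. Levels are the summed CPM over the 4 libraries, inside the group and in all other members.

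Cluster 1 (51 cells) was high in Dcn, a small matrix proteoglycan, at 724 against 131 CPM. It was also high in Aldh1a2, a retinoic acid synthesising enzyme, at 267 against 45.2 CPM, and in Gsc, at 344 against 78.7 CPM. Cluster 3 (39 cells) held much of the Mecom and Rspo2 signal. Mecom stood there at 1294 against 88.1 CPM and Rspo2 at 357 against 59.5 CPM, and Hhip, which binds Hedgehog ligands, at 142 against 12.5 CPM. Cluster 7 (11 cells) was also above the other members in Rspo2, at 221 against 97.6 CPM, with Wnt16 at 206 against 8.52 CPM and Msx1 at 427 against 152 CPM.

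Barx1 was centred elsewhere. Cluster 2 (41 cells) had it at 742 against 247 CPM, with Tbx22, a T-box factor of the palate, at 71.3 against 8.56 CPM and Meis2, a homeobox factor, at 849 against 136 CPM. Rspo2 was at 9.72 CPM in the same cluster. Cell by cell, 98 members held a Barx1 UMI and 53 an Rspo2 UMI, and 14 held both, which is 26.4% of the Rspo2 cells beside 44.7% of all members with Barx1. Mecom and Msx1 shared still fewer cells, 4 of 59 and 67.

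Cluster 4 (34 cells) had 3 of the 7 genes of the tooth-forming mesenchyme list among its 15 leading genes. Dlx2, a distal-less homeobox factor, was at 84.1 against 2.33 CPM, Lhx8, a LIM homeobox factor, at 133 against 13.2 CPM and Msx1 at 469 against 90.3 CPM. Lef1, a nuclear mediator of Wnt signals, was at 172 against 17.9 CPM, and Runx2, the osteoblast and tooth factor, at 621 against 134 CPM. The Lhx8 UMIs of the cluster numbered 1, 8, 32 and 0 by library, so its level rests mostly on mutant 1, and mutant 2 had no Dlx2 UMI there either. Barx1 was near level, at 379 against 335 CPM. Gata2 was at 6.47 against 168 CPM, with a UMI in 5.88% of the cluster's cells. Cluster 5 (25 cells) was led by genes of cell division such as Ube2c at 844 against 36.3 CPM. Without thinning, at least 3 UMIs of 28 cell cycle genes were held by 84% of its cells and by 91.2% of cluster 4. The median depths of these clusters were 10230 and 9503 UMIs. Cluster 6 (18 cells) was led by Mia, a cartilage-derived secreted protein, at 703 against 26.5 CPM and by Aspn, a proteoglycan of skeletal connective tissue, at 572 against 59.1 CPM. Every cluster but the seventh had cells of all 4 libraries.

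**Figure D2:**
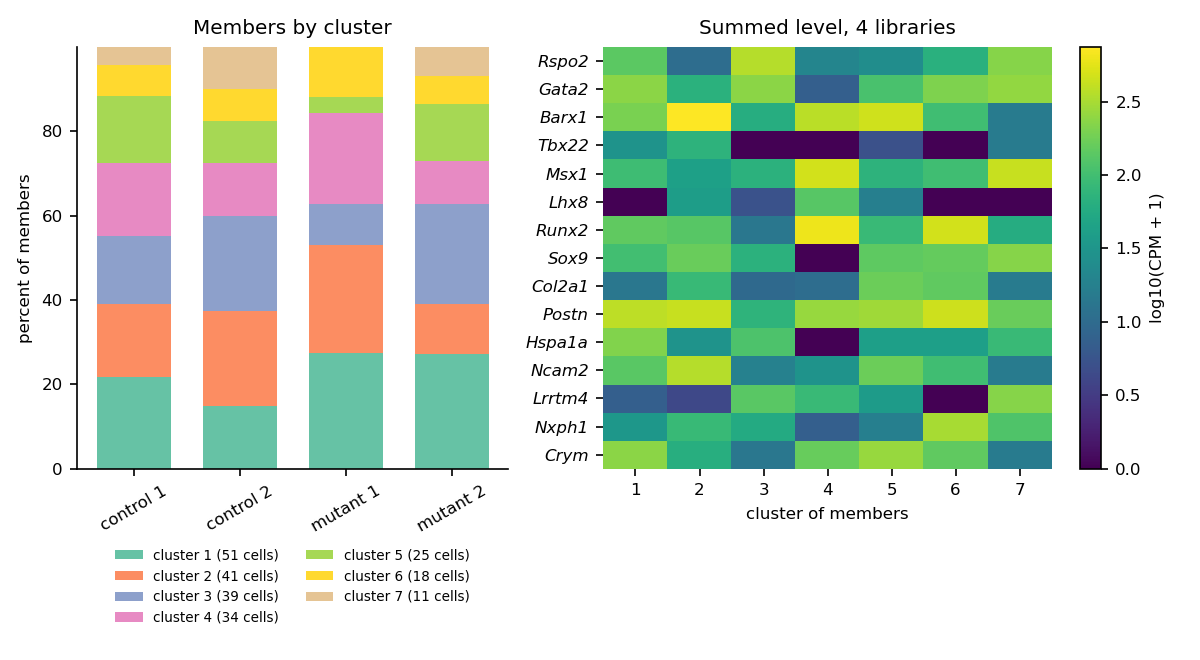
Left, percent of each library's members in the 7 clusters (stacked bars); right, summed level of 15 genes per cluster as log10(CPM + 1) by colour. Rspo2 is highest in cluster 3 (357 CPM), Barx1 in cluster 2 (742 CPM) and Gata2 is lowest in cluster 4 (6.47 CPM), and cluster 7 has no cell of mutant 1.

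The share of members did not separate the genotypes. It was 1.69% and 1.62% of retained cells in controls and 1.7% and 1.41% in mutants, with exact 95% binomial intervals from 1.32% to 2.14% in control 1 and from 1.07% to 1.81% in mutant 2. The intervals cover counting error only. The mutant mean of 1.55% ± 0.210 (SD, n = 2) was 0.100 percentage points below the control mean of 1.66% ± 0.0540 (SD, n = 2), with an exact two-sided permutation p of 1. The smallest p that 2 against 2 libraries allow is 0.33. With each cell thinned to 3000 UMIs the shares were 1.02% and 1.09% against 1.01% and 1.20%, and the sign of the difference turned, to 0.0501 points. The Shox2 cells made up 0.810% and 0.728% of control and 1.14% and 0.763% of mutant cells, with an exact permutation p of 0.667.

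Nor did the makeup of the members order the libraries by genotype in most clusters. Cluster 3, rich in Mecom and Rspo2, held 15.9% and 22.5% of control and 9.80% and 23.7% of mutant members. Cluster 1, the exception, held 21.7% and 15% against 27.5% and 27.1%, so both mutants lay above both controls. Cluster 5, led by division genes, held 15.9% and 10% against 3.92% and 13.6%. Cluster 4, also rich in cycling cells, held 17.4% and 12.5% against 21.6% and 10.2%. Mutant 1 stood apart with 2 cells in cluster 5 and 0 in cluster 7. With 51 members in that library, a count of 0 allows up to 5.88%.

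**Figure D3:**
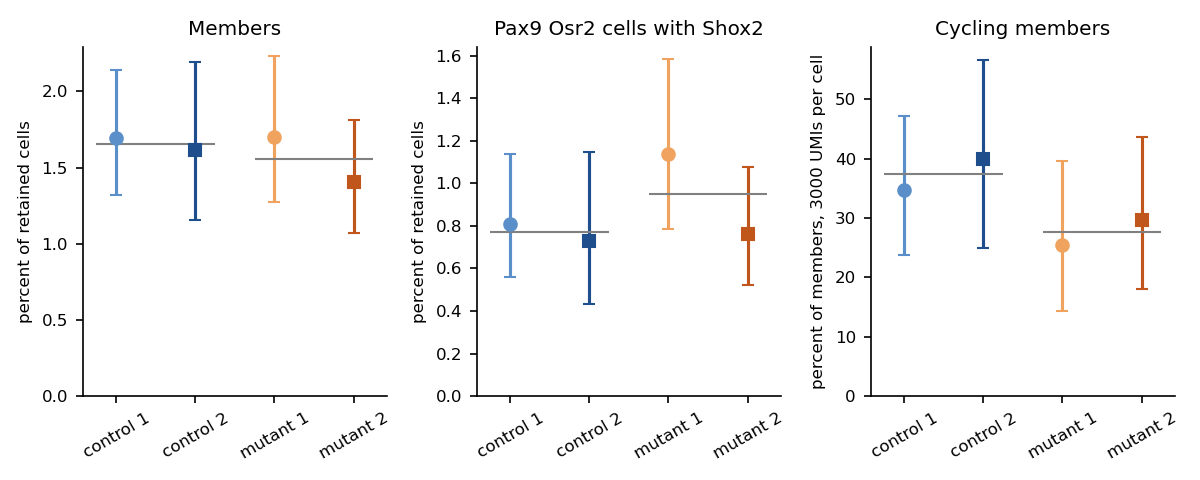
Members and Pax9 Osr2 cells with Shox2 as a percent of retained cells, and members with at least 3 UMIs of cell cycle genes as a percent of members thinned to 3000 UMIs. Points are libraries, bars exact 95% binomial intervals and grey lines group means; the intervals of all 4 libraries overlap in each panel.

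Cycling cells were counted as those with at least 3 UMIs from a list of 28 S and G2/M genes. After thinning to 3000 UMIs, which left out 5 members of mutant 2, they made up 34.8% (95% interval 23.7% to 47.2%) and 40% (24.9% to 56.7%) of control members. In mutants the shares were 25.5% (14.3% to 39.6%) and 29.6% (18% to 43.6%). The groups did not overlap, but the exact two-sided permutation p was 0.33, the smallest possible, and the intervals of the libraries did overlap. Without thinning the order was lost, at 56.5% and 65.0% against 62.7% and 39.0%. Thinned to 3000 UMIs, other mesenchyme gave 32% and 30.7% against 31.0% and 30.9%, a mean difference of -0.451 points. Without thinning it gave 49.3% and 49.9% against 55.0% and 42.1%. Free RNA in the droplets can add to such counts, and its part was not tested.

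Within the members, 6 of 6701 tested genes (0.0895%) passed an adjusted p of 0.05 for a genotype difference, all higher in mutants and none lower. The test was edgeR's quasi-likelihood test on counts summed per library, with Benjamini-Hochberg adjustment over all tested genes. At an unadjusted p of 0.05, 324 genes (4.84%) passed. The groups did not overlap for 19.2% of tested genes with mutants higher and for 14.2% with mutants lower. The 6 genes were Postn, Hspa1a, Hspa1b, Ncam2, Lrrtm4 and Nxph1. Summed counts cannot tell a change in the mix of members from a change within each cell.

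Postn encodes periostin, a secreted matrix protein of connective tissue, the palate and the periosteum (chromosome 3, 54361109 to 54391037, GRCm38). It was at 163 and 141 CPM in control members and 479 and 415 CPM in mutant members. Both mutants lay above both controls. On the log2 scale the members' Postn rose by 1.51 ± 0.25 (SE, 2 libraries against 2; edgeR adjusted p 0.0149). A Postn UMI was found in 29 of 69 and 12 of 40 control members and in 35 of 51 and 31 of 59 mutant members. The 3 highest cells of each library held 29.8% and 52.6% of the control and 33.5% and 33.8% of the mutant UMIs. In other mesenchyme it was at 348 and 262 against 472 and 377 CPM, so both mutants lay above both controls there too. Control members stood below other mesenchyme and mutant members near it.

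The Postn difference also passed with DESeq2's Wald test, at an adjusted p of 0.0393, and without any single library, at log2 changes from 1.35 to 1.63. With each gene capped at 3 UMIs per cell, an alternative chosen after seeing the data, it was 0.84 with an adjusted p of 0.998. Single members held up to 33 Postn UMIs.

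Hspa1a and Hspa1b encode the stress-inducible HSP70 chaperones and are near-identical neighbours on chromosome 17, so reads may be split between them and each level is uncertain. Their upstream sequence is shown because both rose together. The 250 bases before each start are given on the minus strand of GRCm38.p6 from RefSeq, chr17:34972157-34972406 for Hspa1a and chr17:34959239-34959488 for Hspa1b, with the match to the heat shock element core GAANNTTC in capitals.
Hspa1a: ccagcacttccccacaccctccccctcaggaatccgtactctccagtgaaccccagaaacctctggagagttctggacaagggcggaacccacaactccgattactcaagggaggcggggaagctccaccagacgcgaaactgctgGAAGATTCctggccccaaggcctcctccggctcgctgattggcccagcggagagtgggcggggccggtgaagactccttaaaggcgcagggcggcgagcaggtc
Hspa1b: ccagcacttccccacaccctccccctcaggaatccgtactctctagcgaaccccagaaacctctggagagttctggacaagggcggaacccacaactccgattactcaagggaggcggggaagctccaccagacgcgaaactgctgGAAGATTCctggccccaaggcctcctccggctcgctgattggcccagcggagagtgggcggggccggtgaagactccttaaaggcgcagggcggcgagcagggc
The windows agree at 247 of 250 positions (98.8%), and in both the match begins 104 bases before the start. Searched on both strands, the same core occurs in 6.69% of 32851 upstream windows of that length. The TEAD core GGAATG, in 12.6% of all windows, was in 0 of the 8 windows of the 6 genes. A match is a description of the letters only.

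Hspa1a was at 15.5 and 11.2 CPM in control and 101 and 187 CPM in mutant members, a log2 rise of 3.27 ± 0.42 (SE; edgeR adjusted p 0.00174). Hspa1b was at 25.2 and 14.9 against 79.1 and 158 CPM, a rise of 2.38 ± 0.41 (adjusted p 0.0176). The groups did not overlap for either gene, and other mesenchyme moved in the same direction. There Hspa1a was at 19.7 and 4.66 against 48.4 and 49.5 CPM and Hspa1b at 13.8 and 3.57 against 39.1 and 37.8 CPM, with adjusted p of 0.435 and 0.373. In mutant 1, 80.9% of the 47 Hspa1a UMIs came from 3 cells. Hspa1a was among the leading genes of cluster 1, at 209 CPM there against 44.4 CPM in all other members. Of the 19 tested genes of the dissociation stress list, none but this pair passed, and 12 had a higher value in mutants. The groups did not overlap for 4 of the 19 with mutants higher, the pair, Nr4a1 and Socs3, and for 1 with mutants lower, Dusp1, beside 19.2% and 14.2% of all tested genes. Cells were dissociated by enzyme and frozen before loading, and the part of that handling was not tested.

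The 3 other genes that passed encode adhesion or synaptic proteins best known from neurons. Ncam2, a neural cell adhesion molecule, was at 52.4 and 52.1 CPM in control and 284 and 131 CPM in mutant members. Its log2 rise was 1.99 ± 0.36 (edgeR adjusted p 0.0296), and without mutant 1 it was 1.25 with an adjusted p of 0.176. Lrrtm4, a leucine-rich repeat synaptic adhesion protein, was at 7.77 and 11.2 against 113 and 75.9 CPM, a rise of 3.35 ± 0.46 (adjusted p 0.00234). Nxph1, a secreted ligand of neurexins, was at 23.3 and 22.3 against 101 and 105 CPM, a rise of 2.12 ± 0.35 (adjusted p 0.0149). In other mesenchyme Ncam2 stood at 153 and 107 against 123 and 140 CPM, and Lrrtm4 at 56.7 and 42.2 against 69.2 and 52.5 CPM. The genotypes overlapped there for both genes. Nxph1 was lower in mutants there, at 28.9 and 26.8 against 16.4 and 24.1 CPM, which is -0.50 ± 0.17 in log2 with an adjusted p of 0.557.

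The UMIs of these 3 genes sat in few cells. Lrrtm4 UMIs came from 2, 1, 7 and 7 members, and 1 cell of mutant 1 held 25 of its 53. Nxph1 came from 5, 2, 11 and 10 members and Ncam2 from 12, 8, 15 and 12. No cluster carried all 3: Nxph1 was highest in cluster 6 (311 CPM), Ncam2 in cluster 2 (356 CPM) and Lrrtm4 in cluster 7 (221 CPM), which has no cell of mutant 1. The summed level of the neuron marker list was lower in mutants, at 95.1 and 63.2 against 34.2 and 17.5 CPM, through Stmn2.

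**Figure D4:**
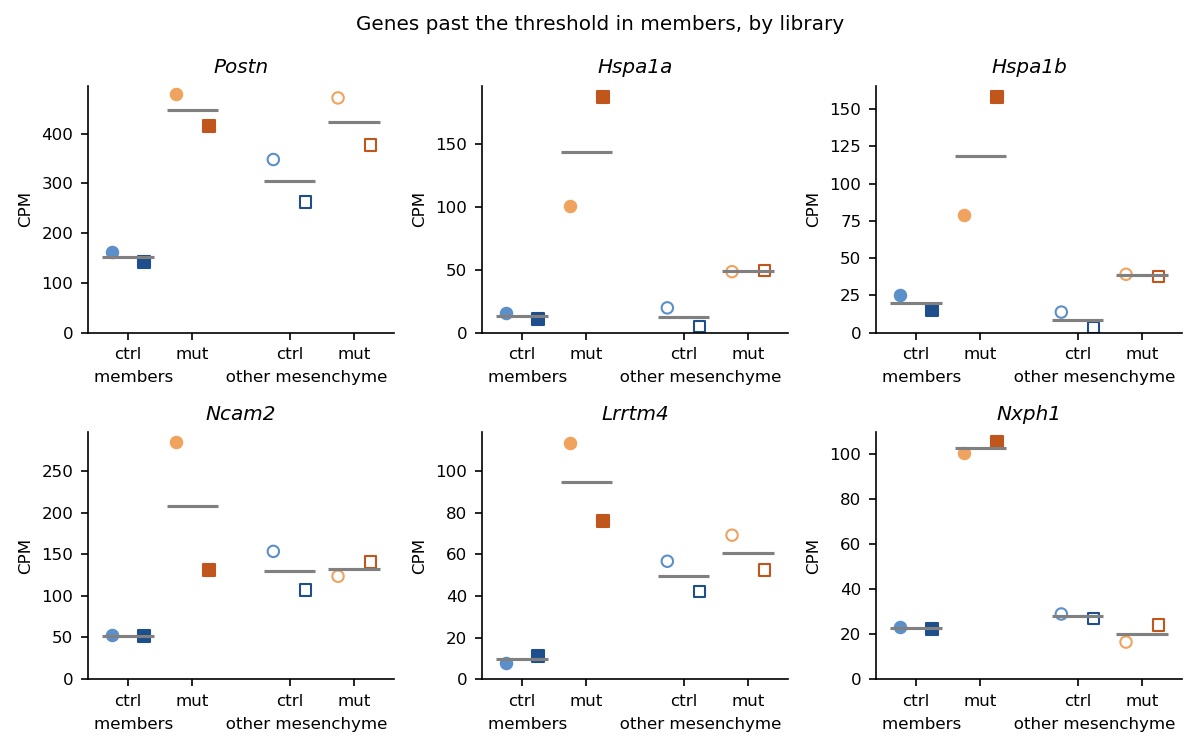
CPM of the 6 genes past the threshold, by library, in members (filled) and in other mesenchyme (open); circles are replicate 1, squares replicate 2 and grey lines group means. Mutant members lie above control members in each panel. In other mesenchyme both mutants also lie above both controls for Postn, Hspa1a and Hspa1b. The genotypes overlap there for Ncam2 and Lrrtm4, whereas both mutants lie below both controls for Nxph1.

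The number of genes called depended on the fit. Leaving out control 1, control 2, mutant 1 or mutant 2 gave 43, 36, 22 and 54 genes, where the lone library of a group was assumed to vary like the other group. The 6 genes were among them each time, save Ncam2 without mutant 1. DESeq2's Wald test called 2 (Hspa1a and Postn) and edgeR without a filter on low counts 40. With the cap of 3 UMIs per cell, edgeR called 0 genes and 266 had an unadjusted p under 0.05.

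No gene was lower in mutants past the threshold, and the 8 with the smallest unadjusted p are given as values. Crym, a cytosolic thyroid hormone binding protein, was at 299 and 96.7 CPM in control and 64.2 and 52.6 CPM in mutant members, which is -1.84 ± 0.39 in log2 (edgeR adjusted p 0.137). Without control 1 its change was -0.75. Prdm16, a zinc-finger factor whose loss is known to cleft the palate, was at 103 and 134 against 38.5 and 70.1 CPM (adjusted p 0.499). Stmn2, a neuronal tubulin-binding protein, was at 79.6 and 55.8 against 21.4 and 0 CPM, from 12 cells in all, and the neuropeptide gene Nts came largely from 9 cells of control 1. The remaining genes were 1500009L16Rik, Nim1k, Dlx1as and Thsd7a, with log2 changes between -2.79 and -1.39.

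The targeted genes and their partners did not pass. Yap1 was at 79.6 and 55.8 CPM in control and 42.8 and 78.9 CPM in mutant members, so the groups overlapped, and the log2 difference was -0.28 ± 0.34 (edgeR adjusted p 0.999). Wwtr1 was at 138 and 112 against 115 and 137 CPM, a change of -0.04 ± 0.27. The libraries read the 3-prime end of transcripts, and whether that end lies in the deleted part is not given, so these levels do not check the deletion. Tead1 was at 223 and 231 against 310 and 333 CPM (0.47 ± 0.24, adjusted p 0.982). Tead2 was at 111 and 93.0 against 105 and 99.3 CPM, Tead3 was below 34 CPM throughout, and Tead4 had 2, 0, 0 and 2 UMIs.

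Of 4 genes next to Sox10 on chromosome 15, 2 could be tested in members and neither passed. Eif3l, a translation initiation factor subunit, was at 83.5 and 74.4 against 165 and 166 CPM in members, and at 87.9 and 84.3 against 178 and 187 CPM in other mesenchyme. Polr2f, an RNA polymerase subunit, was at 214 and 160 against 379 and 318 CPM in members. The log2 changes in members, 1.02 ± 0.28 and 0.85 ± 0.25, had edgeR adjusted p of 0.499 and 0.517. Both mutants lay above both controls for each gene, as for 19.2% of all tested genes.

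Of 15 tested YAP and TAZ target genes none passed. The median log2 change of the list was 0.08, beside 0.00 over all 6701 genes, and 7 of the 15 had both mutants above both controls, beside 19.2% of all tested genes. Igfbp3, an IGF carrier protein, was at 52.4 and 44.6 against 246 and 70.1 CPM, and Ccn2, a matricellular protein, at 19.4 and 18.6 against 96.2 and 35 CPM. Mutant 1 was the higher library for both, and without it their changes were 0.42 and 0.79 on the log2 scale. Ccn1, a classic target, was level at 184 and 182 against 186 and 199 CPM, and Ankrd1 had no UMI in any member.

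Matrix genes leaned upward in mutant members. Of 25 tested genes of the list, 20 had a higher value in mutants and 12 had groups that did not overlap in that direction, beside 19.2% of all tested genes. Only Postn passed, and the median log2 change was 0.34. Col14a1, a fibril-associated collagen, was at 73.8 and 55.8 against 107 and 199 CPM (log2 1.13 ± 0.32, adjusted p 0.499 by edgeR). Sparc, a collagen-binding glycoprotein, was at 452 and 398 against 637 and 666 CPM (0.58 ± 0.22, adjusted p 0.856), and Eln, elastin, at 159 and 112 against 186 and 298 CPM. Dcn overlapped, at 225 and 78.1 against 222 and 444 CPM. Of 9 tested basement membrane genes, 7 had a higher value and none passed. The groups did not overlap for 4 of the 9 with mutants higher and for 0 with mutants lower, beside 19.2% and 14.2% of all tested genes. Over all 6701 tested genes, 3345 had a higher value in mutants.

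Markers of mural cells, the contractile cells of vessel walls, moved with the matrix genes. Their summed level was 77.7 and 55.8 CPM in control and 165 and 190 CPM in mutant members, and 221 to 315 CPM in other mesenchyme. The 3 tested markers, Acta2, Tagln and Notch3, all had higher values in mutants, with none past the threshold, and between 1 and 2 of the 6 markers were at 0 in each library. Acta2 (smooth muscle actin) was at 23.3 and 14.9 against 59.9 and 67.2 CPM, from 4 to 28 UMIs. The part of mural RNA in the matrix result was not tested.

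Cell cycle genes leaned the other way. Of 27 tested, 24 had a lower value in mutants, beside 3356 of all 6701 tested genes. For 7 of them the groups did not overlap, beside 14.2% of all tested genes, and none passed. The median log2 change was -0.39. Ccnb1, the mitotic cyclin B1, was at 66.0 and 44.6 CPM in control and 6.42 and 35 CPM in mutant members (log2 -1.62 ± 0.52, adjusted p 0.561 by edgeR), and Bub1, a spindle checkpoint kinase, at 31.1 and 40.9 against 15 and 14.6 CPM. Mutant 1 was the lowest library for the summed list, at 1292 CPM beside 1933 to 2466 CPM in the others. It had 2 cells in cluster 5 and 11 in cluster 4, the 2 clusters richest in cycling cells. Mutant 2 lay between the controls.

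**Figure D5:**
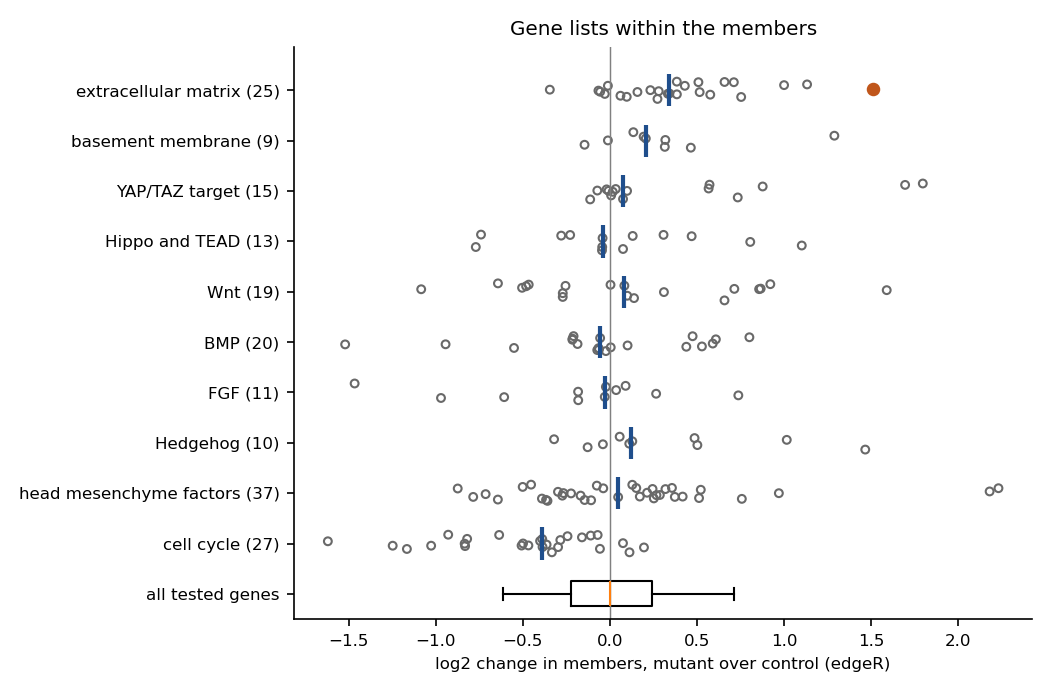
Log2 change between mutant and control members of each tested gene of 10 lists, with the number tested in parentheses; the blue bar is the list median, and the filled point (Postn) is past the adjusted threshold. The box at the bottom shows the quartiles of all 6701 tested genes with whiskers at the 5th and 95th percentiles; the matrix median lies at 0.34 and the cell cycle median at -0.39.

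The signalling pathways of palate and tooth showed no gene past the threshold. Among 19 tested Wnt genes, Sfrp2, a secreted Wnt modulator, was at 757 and 785 against 1790.2 and 1066 CPM (log2 0.87 ± 0.25, adjusted p 0.499 by edgeR). Lgr5, a receptor for R-spondins, was at 157 and 193 against 57.7 and 114 CPM (-1.08 ± 0.31, adjusted p 0.499), and Rspo2 itself changed by -0.50 ± 0.28 (adjusted p 0.982). Neither Sfrp2 nor Lgr5 overlapped between groups. Of the 19 Wnt genes, 6 did not overlap with mutants higher and 2 with mutants lower, beside 19.2% and 14.2% of all tested genes. The median over the Wnt list was 0.08.

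In the BMP list of 20 tested genes, Fst, which binds activins, was at 77.7 and 33.5 against 17.1 and 26.3 CPM, and Id1, a BMP response gene, at 282 and 331 against 248 and 172 CPM. Of 11 FGF pathway genes, Etv4, an ETS factor downstream of FGF receptors, had the smallest p (29.1 and 33.5 against 8.56 and 14.6 CPM). Of 10 Hedgehog genes, Hhip was at 23.3 and 3.72 against 38.5 and 55.5 CPM, whereas the receptor Ptch1 overlapped, at 175 and 134 against 178 and 111 CPM. Among 37 tested transcription factors of head mesenchyme, Meis2 was at 270.0 and 487 against 197 and 219 CPM (-0.87 ± 0.28, adjusted p 0.581) and Pitx1 came from 8 cells in all. Lhx8 overlapped, with 43 of its 58 UMIs in mutant 1.

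A test of whether the genotype difference in members differed from that in other mesenchyme called 39 of 15053 genes (0.259%), 29 higher (0.193%) and 10 lower (0.0664%). Within other mesenchyme alone, 1 of 16115 genes (0.00621%) passed for genotype. The class comparison was fitted by edgeR over the summed counts of both classes with the library as a block. The members' sums rest on 40 to 69 cells and those of other mesenchyme on 1895 to 2998, and the fit gives both the same dispersion for a gene. DESeq2's Wald test called 0 (231 at an unadjusted p under 0.05), and edgeR on counts capped at 3 UMIs per cell called 2, Nxph1 and Pax3. Without mutant 2 edgeR called 81, of which 32 were among the 39, and against the 117 Shox2 cells it called 4, of which 1, Ncam2, was among the 39.

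Of the genes that passed within members, Ncam2, Lrrtm4, Nxph1 and Postn also passed this test. Their differences between the classes were 2.02 ± 0.29, 3.15 ± 0.48, 2.66 ± 0.42 and 1.08 ± 0.23 on the log2 scale, with edgeR adjusted p of 7.61e-08, 3.01e-07, 1.1e-06 and 0.00247. The value for Nxph1 includes its lower level in the other mesenchyme of mutants. Lrrtm4 and Postn did not pass without control 1, and Ncam2 did not without mutant 1. Hspa1a and Hspa1b did not pass, with adjusted p of 0.258 and 1. Both were higher in mutants in both classes, and so was Postn, which passed. The class difference of Eif3l was -0.03 ± 0.28.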

How the data were processed

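Each library is a droplet RNA library of dissociated, frozen and thawed nose cells, made with 10x Genomics 3-prime chemistry per the labels' protocols. The authors deposited raw UMI counts per gene and barcode, made with Cell Ranger 8.0.1 per the file headers, whereas the submitters' processing notes name Cell Ranger 4, Seurat 4.3.0 and mm10. The deposited total was 35887490 UMIs over 4566 barcodes in control 1, 20170229 over 2827 in control 2, 30040144 over 3624 in mutant 1 and 27646940 over 4846 in mutant 2.

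The members, gene lists and tests were chosen with earlier results of these data known. For each library the UMIs of all members were added up, leaving out the rule's 13 genes, and edgeR 4.0.16 in R 4.3.3 was fitted to these sums (filterByExpr, TMM factors, quasi-likelihood test, Benjamini-Hochberg adjustment at 0.05). An SE is the change over the root of the test's F. The code was tested on simulated data, with a spread between libraries that was set and not taken from these data. There the members' test recovered 1 of 180 genes changed 2-fold and 144 of 184 changed 4-fold. A gene that did not pass may therefore still differ between the genotypes. Alternatives were DESeq2 1.42.0, its size factors, no filter, doublets removed, stricter cells and members, a replicate block, a cap on UMIs and each library left out.

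Scrublet's automatic threshold in scanpy 1.11.5 marked 0, 0, 1 and 1 cells and so had not worked. Doublets were kept, and in the alternative the highest scores were removed at 0.8% per 1000 barcodes, 6 members among them. Clusters used 1000 variable genes, 20 components, 15 neighbours and Leiden resolution 0.5. Gene positions are from GENCODE M21.

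Named genes are the rule genes and markers, Yap1, Wwtr1 and the TEAD genes, those past the threshold or the 8 of smallest p where fewer than 5 passed, up to 4 per list by p (any of a list of 10 or fewer), the leading genes by level and the Sox10 neighbours. Nr4a1, Socs3, Dusp1, Ccn1, Ankrd1, Ptch1 and the genes named for clusters lie outside that rule and were chosen after their values were seen.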

Additional observations from a re-analysis of the deposited data

Results flagged for a closer look

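Between members and other mesenchyme, 39 genes differed in their genotype difference by the edgeR test of the difference itself. Of the genes named in the text, 14 are among them. Higher in mutant members relative to other mesenchyme were Lrrtm4 (3.15 on the log2 scale), Nxph1 (2.66), Tagln (2.06), Ncam2 (2.02), Ccn2 (1.88), Acta2 (1.78), Igfbp3 (1.48), Dcn (1.22), Postn (1.08) and the imprinted non-coding RNA Meg3 (0.73). Lower were Dlx1as (-4.05), Stmn2 (-2.62), Crym (-1.72) and Meis2 (-0.97). Dlx1as rests on 31 UMIs in 10 members, with 0 in mutant 2, so its size depends on the prior count of the fit. With single libraries left out, Dlx1as ran from -10.95 (without mutant 1) to -3.67 (without control 1) and passed in no such fit. Stmn2 ran from -12.12 (without mutant 1) to -1.80 (without mutant 2) and did not pass without control 1. Crym was -0.73 and did not pass without control 1, and Meis2 was -0.58 without control 2 and -0.72 without mutant 1, passing in neither fit. Tagln ran from 1.43 (without control 2) to 3.89 (without control 1), the one such fit in which it passed. Dcn ran from 0.83 (without control 2, where it did not pass) to 2.10 (without control 1). For Igfbp3 and Ccn2 the difference was 0.45 and 0.70 without mutant 1, and it passed without mutant 2 only. Acta2 did not pass without control 2, at 1.38, or without mutant 1, nor Ncam2 without mutant 1, at 1.25. Lrrtm4, Postn and Meg3 did not pass without control 1, and Meg3 did not without control 2. Meg3 was at 598 and 825 CPM in control and 1012 and 1273 CPM in mutant members, a range in which other mesenchyme also lay.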

How the results depend on the processing

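Within members, the count of 6 genes became 2 with DESeq2's Wald test, 40 without a filter on low counts, 0 with counts capped at 3 UMIs per cell, and 22 to 54 with a library left out. The replicate numbers share only a number (correlation of deviations 0.0586), and a replicate block gave 9 genes. The class comparison, 39 genes, became 0 with the Wald test, 2 with the cap, 4 against the Shox2 cells and 27 to 81 with a library left out. Its library block already holds the replicate number, so no further block was run.

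The share difference of -0.100 points turned to 0.0501 after thinning and ranged from -0.249 to 0.0478 with a library left out. The cycling difference of -9.83 points ranged from -12.4 to -7.22. Small log2 changes turned sign. Wwtr1 was 0.042 with stricter members and 0.10 with the cap, and -0.17 to 0.13 with a library left out. Over the same left-out libraries Yap1 ranged from -0.72 to 0.092 and Gata2 from -0.74 to 0.024. Sums of 268960 to 515082 UMIs limit what could be detected, since a gene at 10 CPM has a few molecules per library.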
